A study of Mus musculus with 16 samples.

Results

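Malat1, Neat1, Meg3, Rian, Mirg, H19, Gas5, Snhg1, Snhg12 and Kcnq1ot1 are long non-coding RNAs, transcripts that are not known to be translated into protein. They were chosen by symbol from the deposited gene table, and all 10 were found among its 48432 gene identifiers. Of the 10, 6 passed the filter on low counts and were tested (Neat1, H19, Gas5, Snhg1, Snhg12 and Kcnq1ot1), as were 13987 genes in all. Meg3, Rian and Mirg were almost without fragments, and Malat1 has no estimate in the stimulated group. In the study, C2C12 cells, an established mouse myoblast line, were differentiated for 5 days into contractile myotubes after which the control cultures stayed without stimulation and the EPS cultures received electrical pulse stimulation, an electric field set up between electrodes in the medium. EPS used a field of 2.75 V/mm in pulses of 6 ms at 1 Hz (duty cycle 0.6%), with the polarity reversed at 0.5 Hz, for a duration that the sources used here do not give. The 16 samples are 8 libraries of total RNA on 2 lanes each, 4 control and 4 EPS, all from cells at passage 4 to 8. Nothing in the labels ties the 4 libraries of a group to separate cultures, and the p-values therefore reflect only library-to-library spread, possibly technical.

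Long non-coding RNAs act as RNA, in the nucleus or the cytoplasm, and not through a protein product. Neat1 is the scaffold of paraspeckles, nuclear bodies that hold RNA-binding proteins, and Malat1 lies beside it in the genome and gathers at nuclear speckles, where splicing factors are stored. H19, Kcnq1ot1, Meg3, Rian and Mirg come from imprinted regions, where the copies inherited from the mother and the father are used unequally: Kcnq1ot1 is made from the paternal copy and the other 4 from the maternal copy. Gas5, Snhg1 and Snhg12 carry small nucleolar RNAs (snoRNAs) in their introns, and their spliced transcripts are degraded when translation goes on and accumulate when it stops. H19 is abundant in differentiating muscle, and its first exon holds the hairpin of the microRNA miR-675.

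The libraries differed in depth, and this touches every member. The 7 deep libraries held 12.6 to 20.7 M fragments (M, mega) and control replicate 2 held 0.354 M. The upper limit behind a count of 0, taken as 3 fragments, is 0.146 to 0.239 CPM (fragments per M fragments) in the deep libraries and 8.68 CPM in control replicate 2; such limits cover counting error only. In control replicate 2, Gas5 rests on 1 fragment, Snhg12 on 2, Snhg1 on 8, Kcnq1ot1 on 19, Neat1 on 478 and H19 on 5721. Markers of myotubes summed to 27075 to 29823 CPM in control and 16247 to 22214 CPM in EPS over 12 genes. Of these, 0 of 12 were past edgeR's test (8 at an unadjusted p under 0.05, 6 by DESeq2) and 8 were lower with the replicate block. Of all 13987 tested genes, 2590 had an unadjusted p under 0.05 and 668 were lower with the block. The part of these markers in the results below was not tested. Of 7 macrophage markers Adgre1 was at 0 in every library, of 6 endothelial markers Emcn, and of 8 fibroblast markers Tcf21. The summed levels in control and EPS were 2.91 to 8.51 and 2.95 to 30.0 CPM for macrophage markers, 0 to 2.16 and 1.81 to 18.2 CPM for endothelial markers, and 1623 to 5539 and 1412 to 4277 CPM for fibroblast markers. In bulk RNA, fewer cells of a type and less RNA per cell cannot be told apart.

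The sequences printed here come from RefSeq for GRCm38.p6, the assembly called mm10. Promoter windows of 300 bases, with 250 bases before and 50 after an annotated start, were found for 8 of the 10 members; Neat1 and H19 had none. The windows of Malat1, Meg3, Rian and Mirg, which were not tested, are left out. Those of Gas5, Snhg1, Snhg12 and Kcnq1ot1, the tested members with a window, are shown. Capitals mark runs of at least 6 pyrimidines (C or T) that reach within 5 bases of the start, a feature of the terminal oligopyrimidine transcripts to which snoRNA host genes belong, and matches to TGACGTCA (the CRE, bound by CREB and ATF factors), TGACNNNGC (the antioxidant response element) and TATAAA (the TATA box), on either strand. TGATGNAA (the CHOP-ATF element) and the heat shock element (GAA, TTC and GAA, each set 2 bases apart) were also searched and had no match in these 4 windows.
Gas5, chr1:161034916-161035215, plus strand: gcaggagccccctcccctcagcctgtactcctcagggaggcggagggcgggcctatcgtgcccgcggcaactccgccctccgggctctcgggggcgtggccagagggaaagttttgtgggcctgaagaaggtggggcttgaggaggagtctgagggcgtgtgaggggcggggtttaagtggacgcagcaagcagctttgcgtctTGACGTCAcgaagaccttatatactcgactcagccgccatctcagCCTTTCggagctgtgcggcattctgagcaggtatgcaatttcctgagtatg
Snhg1, chr19:8723237-8723536, plus strand: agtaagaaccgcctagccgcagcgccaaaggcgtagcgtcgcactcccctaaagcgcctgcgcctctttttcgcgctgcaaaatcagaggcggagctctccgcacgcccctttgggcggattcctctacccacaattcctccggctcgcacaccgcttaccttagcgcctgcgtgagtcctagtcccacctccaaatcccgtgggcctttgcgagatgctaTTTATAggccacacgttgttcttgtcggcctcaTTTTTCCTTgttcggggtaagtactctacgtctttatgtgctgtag
Snhg12, chr4:132308428-132308727, plus strand: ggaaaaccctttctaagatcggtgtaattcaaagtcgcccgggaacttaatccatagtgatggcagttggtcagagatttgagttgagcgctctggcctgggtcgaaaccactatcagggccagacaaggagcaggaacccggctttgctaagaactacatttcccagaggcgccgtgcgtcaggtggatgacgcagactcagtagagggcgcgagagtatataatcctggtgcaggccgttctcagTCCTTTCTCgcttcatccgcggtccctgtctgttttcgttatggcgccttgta
Kcnq1ot1, chr7:143296498-143296797, minus strand: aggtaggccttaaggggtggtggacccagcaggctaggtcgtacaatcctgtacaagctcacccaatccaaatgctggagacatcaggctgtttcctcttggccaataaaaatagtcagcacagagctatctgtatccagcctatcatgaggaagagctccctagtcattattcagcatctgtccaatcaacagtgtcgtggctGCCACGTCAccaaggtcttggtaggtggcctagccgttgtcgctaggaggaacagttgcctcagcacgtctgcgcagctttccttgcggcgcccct
The run of pyrimidines was cctttc in Gas5, tcctttctc in Snhg12 and tttttcctt in Snhg1. Rian, a member that also has snoRNA genes inside it, had no such run in its window. RefSeq has another window for Gas5 (chr1:161034351-161034650), nearer to the gene's first annotated base, and it holds neither such a run nor any of the motifs. Such a run stood in 20.2% of all 32851 windows in the table. The CRE stood 46 bases before the shown start of Gas5 and in 1.79% of all windows. The antioxidant response element stood 46 bases before the start of Kcnq1ot1, on the opposite strand, and in 12.4% of all windows. The TATA box of Snhg1 lay 29 bases before its start, on the opposite strand, and 13.6% of all windows hold one. CHOP-ATF and heat shock elements were in 3.97% and 0.603% of all windows. A match is a description of the letters and not evidence of binding.

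By level, H19 and Malat1 stood far above the other members. On the deposited FPKM scale (fragments per kilobase and M fragments, which allows genes of different length to be compared), H19 had a mean level of 7041 ± 2840 (SD, n = 4) in control and was the second most abundant of 48392 genes with an estimate. Malat1 had 3536 ± 1357 (SD, n = 4), which was rank 5. Genes marked as skipped for too many fragments, 40 in control and 15 in EPS, have no estimate and no rank. Some of these may be more abundant, so the ranks hold only among genes with an estimate. Neat1 followed with 80.9 ± 44.6 (SD, n = 4) at rank 799, and Snhg1 with 24.4 ± 6.61, Snhg12 with 14.9 ± 3.90 and Gas5 with 11.7 ± 4.65 (SD, n = 4 each) were lower still. Kcnq1ot1 had 0.251 ± 0.0656 (SD, n = 4) over its 93.1 kb. In EPS the means were 4566 for H19 (rank 4 of 48417), 140 for Neat1 (rank 411), 35.2 for Snhg1, 23.5 for Gas5, 20.8 for Snhg12 and 1.62 for Kcnq1ot1. In control the ranges over libraries overlapped between H19 and Malat1 and between Snhg12 and Gas5, and the other neighbours did not overlap. Such ranges do not compare 2 genes within a library. H19 was above Malat1 in control replicates 2, 3 and 4 (11063.5 against 4426, 6699 against 2368 and 5954 against 2385). It was below Malat1 in control replicate 1 (4448 against 4966). In EPS the ranges of Neat1 and Snhg1 overlapped, although Neat1 was above Snhg1 within each EPS library. Those of Snhg1, Gas5 and Snhg12 also overlapped, while H19 lay above all of these members and Kcnq1ot1 below. A level per kb computed from the CPM put Snhg12 above Gas5 in EPS. On that scale the EPS means of Kcnq1ot1 and Gas5 were close (1.81 and 2.34), unlike on the FPKM scale (1.62 and 23.5). Kcnq1ot1 was above Gas5 there in EPS replicate 2 (5.01 against 3.41). The distance between these members therefore depends on the scale.

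**Figure D1:**
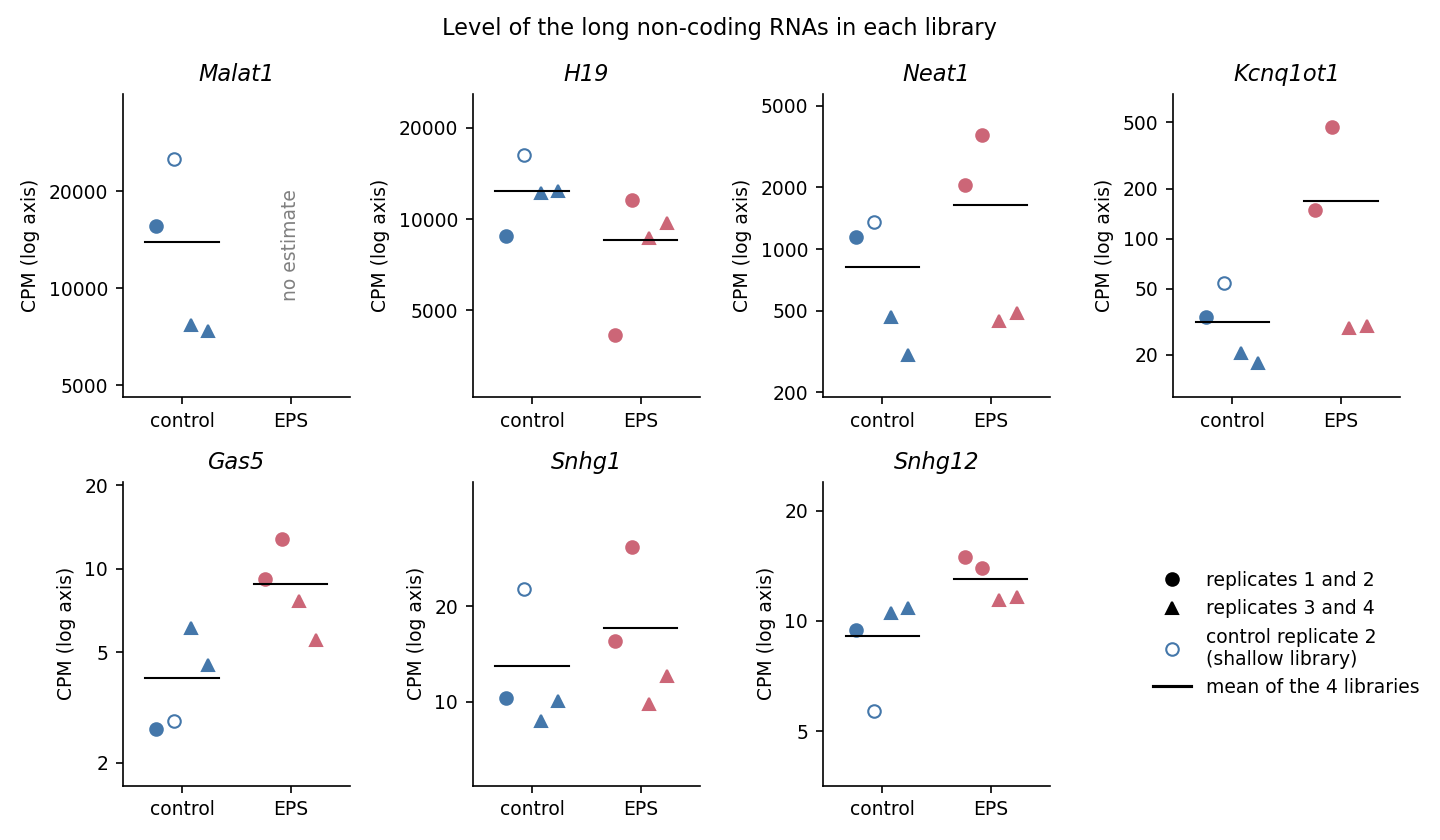
Level of the 7 members with more than a few fragments in each library, in CPM on a log axis, for control (blue) and EPS (red). Circles are replicates 1 and 2, triangles replicates 3 and 4, the open circle is the shallow control replicate 2 and the line is the mean of 4 libraries. Neat1 and Kcnq1ot1 are highest in EPS replicates 1 and 2, and Malat1 has no estimate in EPS.

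The first comparison asks which members differ between stimulated and unstimulated myotubes. None of the 6 tested members passed edgeR's quasi-likelihood test at an adjusted p of 0.05 with all 8 libraries, while 3.06% of all tested genes did. DESeq2 also called 0 of 6, and 2 members, Kcnq1ot1 and Gas5, had an unadjusted p under 0.05, as had 2590 genes. The replicate numbers were taken to pair the libraries, from correlations across genes in these same data and not from the labels. With the number as a block, Kcnq1ot1 rose and H19 fell, which makes 2 of 6 members against 12.1% of all tested genes. When any 1 library was left out of the unblocked fit, 0 of 6 members were called in all 8 fits.

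Among the imprinted genes, Kcnq1ot1 had the largest fitted difference. Kcnq1ot1 (ENSMUSG00000101609, chr7:143203458-143296549, minus strand) is 1 exon that runs antisense through an intron of the potassium channel gene Kcnq1 and silences nearby genes on the same chromosome copy. Its level in control replicates 1 to 4 was 33.6, 53.9, 20.6 and 17.8 CPM, and in EPS replicates 1 to 4 it was 149, 466, 28.9 and 29.8 CPM. EPS replicates 1 and 2 lay above every control library, whereas EPS replicates 3 and 4 lay within the control range, so the groups overlapped. The log2 fold change over all libraries was 2.63 (SE 0.86, 95% interval 0.94 to 4.32, adjusted p = 0.135). With the replicate block it was 1.46 (SE 0.33, adjusted p = 0.0190) and with offsets for transcript length and GC content 1.64 (SE 0.37, adjusted p = 0.0322), both past the threshold; 5.15% of all tested genes passed with the offsets. Without EPS replicate 2 the unblocked value was 1.39 (adjusted p = 0.279), and with the block and without both libraries of replicate 2 it was 1.15 (adjusted p = 0.0238). Every pair of same-numbered libraries had more Kcnq1ot1 in EPS than in control. The sources used here do not give the strand setting of the counting, and Kcnq1 on the other strand held 157 fragments in all libraries against 11205 for Kcnq1ot1. The Kcnq1 count covers its 4.09 kb of exons and not the intron. It therefore does not show how much of the Kcnq1ot1 count came from the other strand.

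Genes of the imprinted domain that Kcnq1ot1 is known to silence ranged widely in level, from 0 CPM in control for Phlda2 and Ascl2 to 655 CPM for Cd81. Of 9 genes of that domain taken from the list of imprinted genes, 7 were tested and 0 were called. With the replicate block 1 of 7 was called, against 12.1% of all tested genes in either direction. The gene called with the block was Cdkn1c, an inhibitor of the cell cycle. It had 10.1 CPM in control and 4.96 CPM in EPS, a difference of -1.13 on the log2 scale (adjusted p = 0.199). With the block it fell by 0.94 on the log2 scale (adjusted p = 0.0112). Kcnq1 itself had 2.68 ± 2.06 CPM (SD, n = 4) without and 1.02 ± 0.308 CPM (SD, n = 4) with stimulation (log2 fold change -0.84, adjusted p = 0.351). Its 5.67 CPM in the shallow control replicate 2 rests on 2 fragments. Slc22a18 went the other way, with 0.472 ± 0.340 CPM (SD, n = 4) without and 1.31 ± 0.188 CPM (SD, n = 4) with stimulation (log2 fold change 1.08, SE 0.38, adjusted p = 0.162; 0.0852 with the block). All 4 EPS libraries of Slc22a18 (1.09 to 1.54 CPM) lay above all 4 control libraries, on 33 fragments in control and 96 in EPS. The groups did not overlap in 14.1% of all tested genes. Control replicate 2 had 0 fragments of Slc22a18. As 1 fragment there is about 2.89 CPM, above every EPS library, this library cannot show a gap at such levels. Cd81, Nap1l4, Osbpl5 and Tssc4 had log2 fold changes of -0.037, -0.028, -0.17 and 0.29. Phlda2 and Ascl2, both best known from placenta, had 6 and 2 fragments in all libraries and were not tested. The domain genes were picked out of the list after results for Kcnq1ot1 were known.

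H19 had a lower mean in EPS, not past the test with all 8 libraries. It passed when libraries were blocked by replicate number or when replicates 3 and 4 were fitted alone. H19 (ENSMUSG00000000031, chr7:142575529-142578143, minus strand, 5 exons) is expressed from the maternal copy beside the growth factor gene Igf2. In control replicates 1 to 4 it stood at 8818, 16231, 12214 and 12396 CPM, and in EPS replicates 1 to 4 at 4139, 11557, 8675 and 9721 CPM. Each EPS library was below the control library of the same number, but control replicate 1 lay below EPS replicates 2 and 4, so the groups overlapped. The log2 fold change was -0.54 (SE 0.32, 95% interval -1.18 to 0.094, adjusted p = 0.411) with all libraries and -0.61 (SE 0.16, adjusted p = 0.0350) with the block. In replicates 3 and 4 alone it was -0.42 (SE 0.092, adjusted p = 0.0168). The block called 12.1% of all tested genes, and the fit of replicates 3 and 4 alone called 1156 genes higher and 1121 lower. Igf2 had 157, 840, 296 and 256 CPM in control replicates 1 to 4 and 148, 284, 256 and 224 CPM in EPS replicates 1 to 4, so the shallow control replicate 2 stood far above the rest. Its log2 difference was -0.72 (adjusted p = 0.432), and -0.99 to -0.058 when 1 library was left out. The microRNA gene inside H19 was listed with 0 fragments in every library, and its 2 mature products do not share a seed (bases 2 to 8, in capitals); they are shown because the H19 level in a total RNA library does not measure them.
mmu-miR-675-5p, chr7:142577112-142577133, minus strand: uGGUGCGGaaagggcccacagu
mmu-miR-675-3p, chr7:142577078-142577099, minus strand: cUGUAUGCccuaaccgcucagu

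The maternally expressed RNAs of the Dlk1-Dio3 region on chromosome 12 were close to absent. Meg3 (chr12:109541001-109571726), Rian (chr12:109603940-109661716) and Mirg (chr12:109729764-109749460) lie in a row on the plus strand and carry many microRNAs and, in Rian, snoRNAs. All 3 had 0 fragments in the 4 control libraries, whose summed depth of 51.7 M allows up to 0.0580 CPM. In EPS, Meg3 had 1 fragment, Mirg 3 and Rian 5, and 8 of these 9 came from EPS replicate 2 (0.0801, 0.240 and 0.320 CPM), with the other Rian fragment in EPS replicate 4. The interval from Dlk1 to Dio3 (chr12:109452823-110281097) holds 104 listed genes, 90 of them microRNA or snoRNA genes, of which 0 were tested and 4 had any fragment, 0 in control and 10 in EPS. The paternally expressed Dlk1 and Rtl1, known from growing muscle, were at 0 in every library. No fold change is given for these genes.

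The 3 tested snoRNA host genes among the members had means above control in EPS, and none passed the test over all libraries. Gas5 (ENSMUSG00000053332, chr1:161034422-161038539, plus strand, 12 exons) accumulates when growth stops and can bind the glucocorticoid receptor. Its level was 2.65, 2.84, 6.13 and 4.49 CPM in control replicates 1 to 4 and 9.20, 12.8, 7.65 and 5.53 CPM in EPS replicates 1 to 4. Only EPS replicate 4 was below the highest control library, replicate 3. The log2 fold change was 1.02 (SE 0.35, 95% interval 0.33 to 1.71, adjusted p = 0.154), and 0.83 with the block (adjusted p = 0.101).

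Snhg1 (ENSMUSG00000108414, chr19:8723475-8726443, plus strand, 10 exons) had 10.3, 22.7, 8.72 and 10.1 CPM in control replicates 1 to 4 and 15.6, 30.8, 9.87 and 12.1 CPM in EPS replicates 1 to 4. In both groups replicate 2 was highest, and the groups overlapped. The log2 fold change was 0.68 (SE 0.38, adjusted p = 0.379). Snhg12 (ENSMUSG00000086290, chr4:132308623-132311024, plus strand, 5 exons) had 9.41, 5.67, 10.5 and 10.8 CPM in control and 14.96, 13.9, 11.4 and 11.6 CPM in EPS, in replicate order. All 4 EPS libraries stood above all 4 control libraries, which was so for 1 of the 6 tested members, while the groups did not overlap in 14.1% of all tested genes. The difference was small, with a log2 fold change of 0.38 (SE 0.20, 95% interval -0.016 to 0.78, adjusted p = 0.3498). The snoRNA genes inside these hosts (10 in Gas5, 8 in Snhg1 and 5 in Snhg12) held at most 27 fragments per host and group, so the levels describe the host transcripts only.

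A neighbour of Snhg1 rose. Slc3a2, which encodes the heavy chain of the CD98 amino acid transporter, starts 106 bp from Snhg1 on the opposite strand, and both starts lie in the Snhg1 window printed above. Its mean was 128 ± 31.8 CPM (SD, n = 4) among control libraries and 443 ± 219 CPM (SD, n = 4) among EPS libraries (log2 fold change 1.79, SE 0.35, adjusted p = 0.0239; 0.000993 with the block). The call was lost without EPS replicate 1 (adjusted p = 0.0814) and without control replicate 1, 2, 3 or 4 (0.0527, 0.0575, 0.108 and 0.0977), and with limma on log2(FPKM + 0.1) and log2(FPKM + 1) (0.0938 and 0.0773). Of the 7 tested genes that overlap a member or lie within 10 kb of one, Slc3a2 was the only one called. Frmd8 beside Neat1, Zbtb37 at Gas5, Wdr74 beside Snhg1 and Trnau1ap beside Snhg12 had log2 fold changes of 0.39, -0.21, -0.30 and -0.0032.

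Neat1 and Malat1, the nuclear RNAs, were both higher in replicates 1 and 2 than in replicates 3 and 4 of the control group. Neat1 (ENSMUSG00000092274, chr19:5824708-5845478, minus strand) had 1143, 1356, 467 and 304 CPM in control replicates 1 to 4 and 2047, 3588, 447 and 488 CPM in EPS replicates 1 to 4. EPS replicates 1 and 2 were the highest of all libraries, while EPS replicates 3 and 4 lay within the control range. The log2 fold change was 1.02 (SE 0.69, 95% interval -0.33 to 2.37, adjusted p = 0.469), and without EPS replicate 2 it was 0.29 (adjusted p = 0.896). With the block it was 0.71 (adjusted p = 0.0506), and the block with length and GC offsets took it past the threshold (0.61, adjusted p = 0.0264). The short and long isoforms of Neat1 share their start, and a value per gene does not separate them. Malat1 (ENSMUSG00000092341, chr19:5795690-5802672, minus strand) had 15640, 25177, 7690 and 7354 CPM in control replicates 1 to 4. The table marks its EPS estimate as skipped for too many fragments, so no comparison between EPS and control was made.

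**Figure D2:**
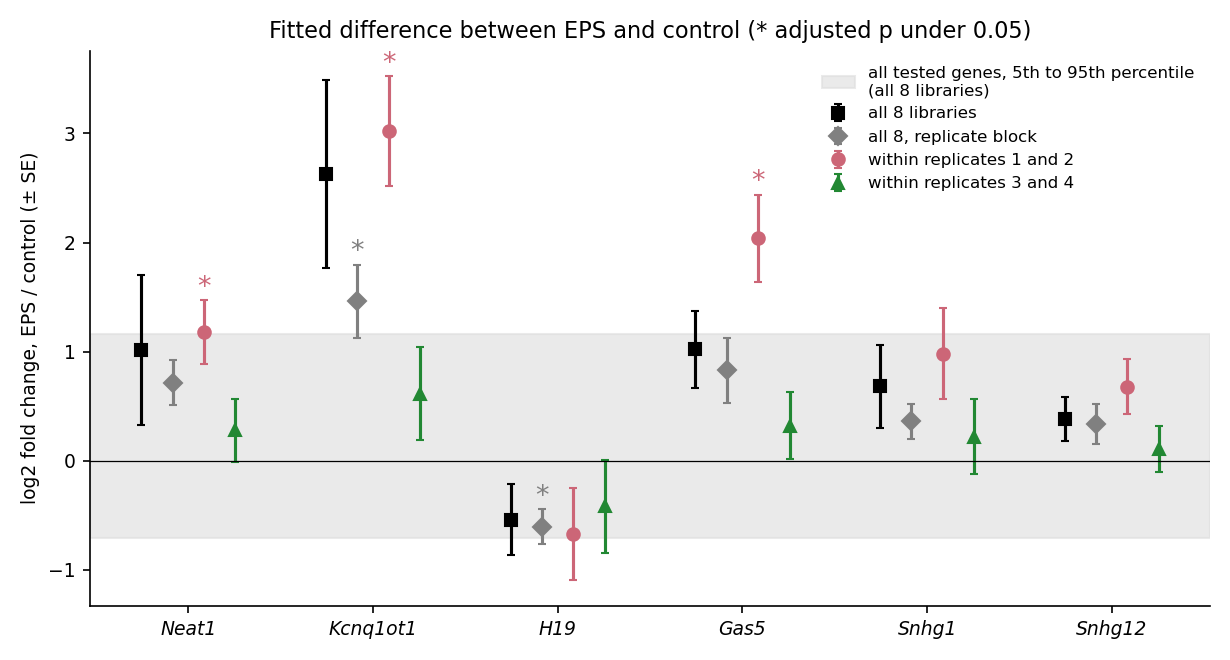
Log2 fold change between EPS and control (± SE) of the 6 tested members by edgeR, with all 8 libraries (black), with the replicate block (grey), within replicates 1 and 2 (red) and within replicates 3 and 4 (green). The band spans the 5th to 95th percentile of all tested genes with 8 libraries, and stars mark an adjusted p under 0.05. Kcnq1ot1, Gas5 and Neat1 carry a star within replicates 1 and 2, and no member carries one within replicates 3 and 4.

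EPS was then set against control within replicates 1 and 2 and within replicates 3 and 4, in a fit that shares 1 estimate of spread. Within replicates 1 and 2, Kcnq1ot1, Gas5 and Neat1 rose in EPS and the other 3 tested members did not pass the test, which makes 3 of 6 against 12.6% of all tested genes called in either direction and 8.52% called higher. The log2 fold changes were 3.02 for Kcnq1ot1 (SE 0.51, adjusted p = 0.00628), 2.04 for Gas5 (SE 0.40, adjusted p = 0.0118) and 1.18 for Neat1 (SE 0.29, adjusted p = 0.0303). With offsets for length and GC content they were 2.05, 1.956 and 0.84, all past the threshold, and the fold of Kcnq1ot1 was over 1.5 times smaller. Snhg1, Snhg12 and H19 had 0.98, 0.68 and -0.67 (adjusted p = 0.150, 0.111 and 0.325). Of 12 myotube markers, 7 fell in the same comparison, against 575 of 13987 tested genes called lower. The part of these markers was not tested. The control side of this comparison is 1 deep library and the shallow one. Without control replicate 1, the adjusted p of these 3 genes was 0.114, 0.329 and 0.135. Gas5 and Kcnq1ot1 were called in each of the other 7 fits that left out 1 library. Kcnq1ot1 had a log2 fold change of 2.05 without EPS replicate 2 and 3.67 without EPS replicate 1. Neat1 was called in 3 of 8 such fits, and was not past the threshold without EPS replicate 2, 3 or 4 (0.132, 0.0666 and 0.0664) or the shallow control library (0.0512). Snhg1 and H19 passed when 1 library was left out, Snhg1 without EPS replicate 1 (1.47, adjusted p = 0.00945) and H19 without EPS replicate 2 (-1.60, adjusted p = 0.0178). H19 also passed in the fit without the filter on low counts (adjusted p = 8.5e-07).

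Within replicates 3 and 4, edgeR called 0 of 6 members, against 1.39% of all tested genes, with 0 members at an unadjusted p under 0.05 and 0 by DESeq2. The values ran from -0.42 for H19 to 0.61 for Kcnq1ot1, with Neat1 at 0.28, Gas5 at 0.32, Snhg1 at 0.22 and Snhg12 at 0.10. When these 4 libraries were fitted alone, with their own spread, Kcnq1ot1 rose (0.61, SE 0.12, adjusted p = 0.0111) and H19 fell, as given above. That fit called far more genes than the shared one, 1156 higher and 1121 lower. H19 also passed in the fit without the filter on low counts (adjusted p = 0.0387). The test of the difference between these sets called 0.0% of genes and so 0 of 6 members by edgeR, with 1483 genes and 2 members at an unadjusted p under 0.05 and 55 genes by DESeq2. The largest differences in log2 fold change were 2.41 for Kcnq1ot1 (SE 0.65, 95% interval 1.13 to 3.68, adjusted p = 0.383) and 1.72 for Gas5 (SE 0.50, 95% interval 0.74 to 2.69, adjusted p = 0.383). With offsets for length and GC content these differences were 1.21 for Kcnq1ot1 and 1.69 for Gas5, in the opposite order (adjusted p = 0.308 and 0.316). DESeq2 called that of Kcnq1ot1 (adjusted p = 0.0211). Without EPS replicate 1, edgeR called Kcnq1ot1 (adjusted p = 0.00678) and Gas5 (adjusted p = 0.0492).

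Replicates 1 and 2 were also set against replicates 3 and 4 directly, over both groups. Neat1 and Kcnq1ot1 were higher in replicates 1 and 2, and the other 4 tested members did not pass, which makes 2 of 6 against 13.1% of all tested genes in either direction and 6.26% called higher. The log2 fold change was 2.14 for Neat1 (SE 0.21, adjusted p = 0.00280) and 2.18 for Kcnq1ot1 (SE 0.32, adjusted p = 0.00765). For both genes all 4 libraries of replicates 1 and 2 stood above all 4 of replicates 3 and 4, while the sets did not overlap in 16.2% of all tested genes. Both were called in all 8 fits that left out 1 library, with highest adjusted p of 0.0237 and 0.0449. In control alone, the mean of replicates 1 and 2 over that of replicates 3 and 4 was 3.24 for Neat1, 2.71 for Malat1 and 2.28 for Kcnq1ot1. In EPS it was 6.03 for Neat1 and 10.5 for Kcnq1ot1. H19, Gas5 and Snhg12 had log2 differences of -0.10, -0.12 and 0.045, and Snhg1 had 0.69 (adjusted p = 0.107), which passed without EPS replicate 1 (0.86, adjusted p = 0.0120).

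Transcript length moved with this split. Across genes, the deviation of a library's log2 CPM from the mean and the log2 of transcript length had a correlation of 0.123 and 0.175 in EPS replicates 1 and 2 and of -0.272 and -0.244 in EPS replicates 3 and 4. For control replicates 1 to 4 the values were -0.0357, 0.130, -0.178 and -0.181; these are descriptions across 13947 genes. Kcnq1ot1, with 93.1 kb, and Neat1, with 20.8 kb, are the longest of the tested members, and the other 4 have 2.40 to 3.76 kb of exons. Of 1255 tested genes with over 10 kb of exons, 240 were higher and 27 lower in replicates 1 and 2, and with offsets for length and GC content the balance turned, to 61 higher and 112 lower. With the same offsets, the log2 difference of Neat1 was 1.63 (SE 0.16, adjusted p = 0.00208) and that of Kcnq1ot1 0.81 (SE 0.16, adjusted p = 0.0165). Both stayed past the threshold, as did 12.3% of all tested genes, and the fold of Kcnq1ot1 was over 1.5 times smaller. Limma on log2(FPKM + 0.1) and on log2(FPKM + 1) called Neat1 (1.82 and 1.80) but not Kcnq1ot1 (adjusted p = 0.144 and 0.137). Fibroblast markers also moved with the sets (3 of 4 tested lower in replicates 1 and 2). Their sums were 1412 to 3080 CPM in replicates 1 and 2 and 4258 to 5539 CPM in replicates 3 and 4. Of 12 proliferation markers, 6 were lower in replicates 1 and 2, against 950 of 13987 tested genes called lower. With offsets for length and GC content 8 of the 12 were lower, and by either limma fit 0. The calls of proliferation markers were lost in some of the fits that left out 1 library. The part of these markers and of length in the set differences was not tested. The sources used here do not say what the 2 sets of replicates are.

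**Figure D3:**
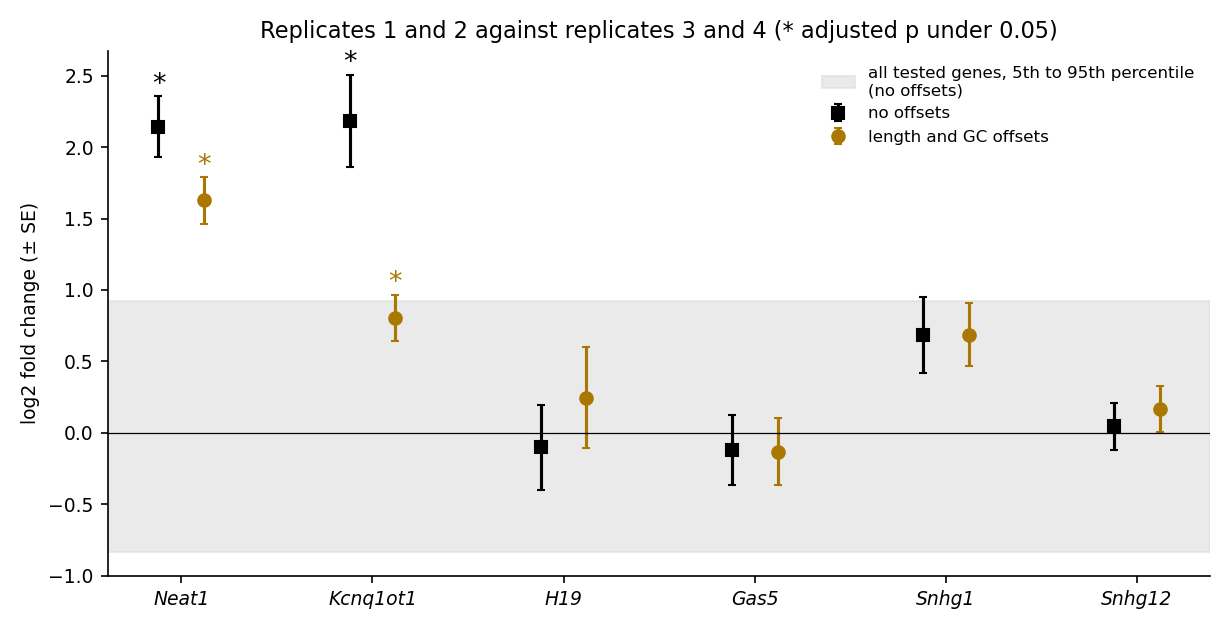
Log2 fold change (± SE) of the 6 tested members between replicates 1 and 2 and replicates 3 and 4 by edgeR, without offsets (black) and with offsets for length and GC content (brown). The band spans the 5th to 95th percentile of all tested genes without offsets, and stars mark an adjusted p under 0.05. With the offsets Neat1 goes from 2.14 to 1.63 and Kcnq1ot1 from 2.18 to 0.81.

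Among other long non-coding genes, more were higher than lower in replicates 1 and 2. Of 529 other tested genes annotated as long non-coding, 64 (12.1%) were higher and 9 (1.70%) lower there, against 6.26% of all tested genes called higher and 13.1% in either direction, with a median log2 difference of 0.44 against -0.026 for all tested genes. With offsets there were 82 and 3, with a median of 0.55. The counts rest on few libraries: 5 and 2 were higher without control replicate 3 or 4, 2 and 4 without EPS replicate 3 or 4, and 0 were lower in each case. Without control replicate 1 the counts were 32 and 7, with a median of -1.53. Limma on log2(FPKM + 1) called 0 in either direction. Between EPS and control, 3 of the 529 rose and 8 fell, against 3.06% of all tested genes called in either direction, with a median of 0.21 against 0.010 for all tested genes. The long non-coding genes whose pattern was most like that of Neat1 were AI480526 and 2610037D02Rik. By the root mean square difference of centred log2 CPM over 7 deep libraries, they lay at 0.331 and 0.409, and Gm12258, annotated as protein-coding, at 0.386. Kcnq1ot1 was at place 72 of 10817 genes (0.606), Snhg1 at place 426 (0.795), and the median over all genes was 1.27.

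**Figure D4:**
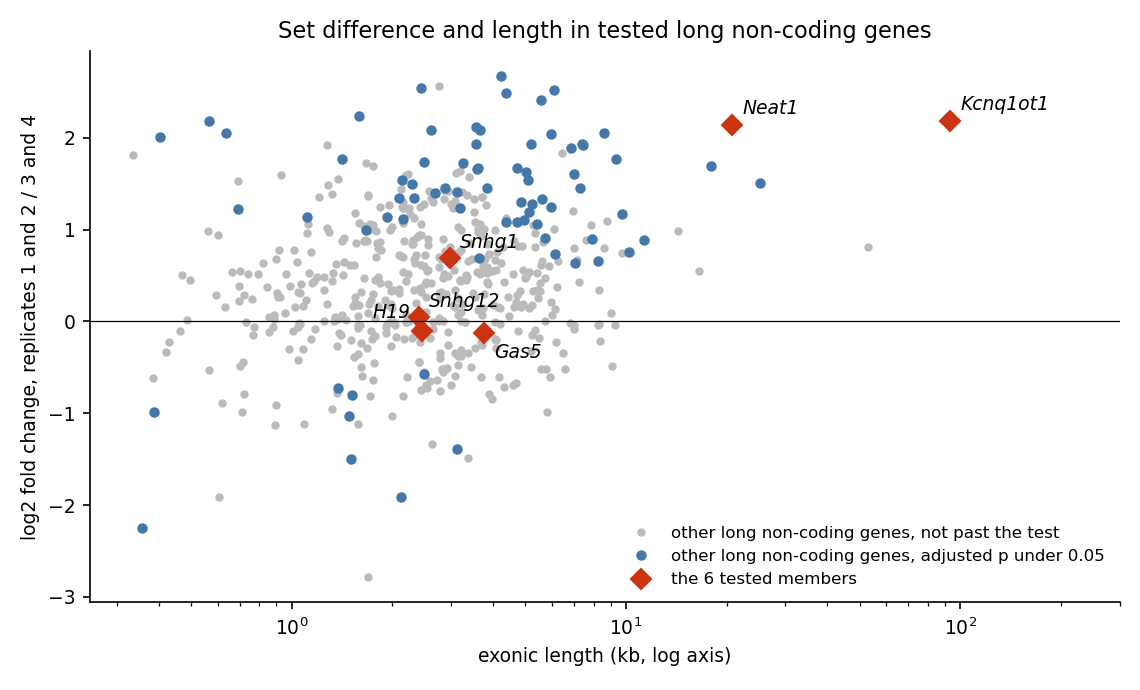
Log2 fold change between replicates 1 and 2 and replicates 3 and 4 against exonic length (kb, log axis) for all tested long non-coding genes. Red diamonds are the 6 members, blue points other genes with an adjusted p under 0.05 and grey points the rest of the 529. Neat1 and Kcnq1ot1 lie at the top right, and H19, Gas5 and Snhg12 near 0.

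Genes that work with these RNAs were described from lists. Of 11 tested other snoRNA host genes, edgeR called 0 between EPS and control (0 by DESeq2, 2 at an unadjusted p under 0.05), with a median log2 fold change of 0.41 against 0.010 for all tested genes. Snhg5, which had the highest mean CPM of these, had 29.2 ± 9.28 CPM (SD, n = 4) without and 28.9 ± 6.39 CPM (SD, n = 4) with stimulation. With the block 2 of 11 were higher and 0 lower, against 12.1% of all tested genes in either direction. Of 17 factors of nonsense-mediated decay, the pathway that degrades spliced snoRNA hosts, edgeR called 0 (0 by DESeq2, 4 at an unadjusted p under 0.05), with a median of 0.22. Within replicates 1 and 2, 2 of 17 rose, among them the kinase Smg1 (1.65, adjusted p = 0.00662), and 1 to 5 rose when 1 library was left out. Of all tested genes, 8.52% were called higher within replicates 1 and 2. Of 8 core proteins of snoRNA particles edgeR called 0 over all libraries (2 at an unadjusted p under 0.05, 0 by DESeq2). Nop58, which had the highest mean CPM of these, had 117 ± 68.7 CPM (SD, n = 4) without and 119.7 ± 29.4 CPM (SD, n = 4) with stimulation.

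Of 18 paraspeckle proteins, which bind Neat1, edgeR called 0 over all libraries (3 at an unadjusted p under 0.05, 0 by DESeq2), and 4 rose within replicates 1 and 2, where 8.52% of all tested genes were called higher. For Smarca4, the one with the highest mean CPM, the log2 difference was 0.028 (adjusted p = 0.954). Of 20 nuclear speckle proteins, edgeR called 0 over all libraries (3 at an unadjusted p under 0.05, 1 by DESeq2) and 6 rose within replicates 1 and 2, among them Son, a splicing cofactor of the speckle core (0.74, adjusted p = 0.0321). Set against replicates 3 and 4, 4 of 18 paraspeckle and 6 of 20 speckle proteins were higher in replicates 1 and 2 and 0 were lower, against 6.26% of all tested genes called higher and 13.1% in either direction. Without control replicate 1, 0 paraspeckle and 2 speckle proteins rose within replicates 1 and 2. The set counts fell to 0 and 1 without control replicate 3, to 1 and 0 without control replicate 4, and to 0 and 0 without EPS replicate 3 or 4. Of 38 tested other imprinted genes, edgeR called 0 (1 by DESeq2, 5 at an unadjusted p under 0.05), with a median of -0.13. Gnas, which had the highest mean CPM of these, had 1216 ± 81.4 CPM (SD, n = 4) without and 999.9 ± 109 CPM (SD, n = 4) with stimulation.

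Of 24 other long non-coding RNAs, 1 fell and 0 rose between EPS and control by edgeR, against 3.06% of all tested genes called, with 6 at an unadjusted p under 0.05. DESeq2 called 3 higher and 1 lower. The replicate block gave 4 higher and 1 lower, against 12.1% of all tested genes in either direction. Trp53cor1, known as lincRNA-p21 and induced by p53, had a mean of 16.96 ± 1.02 CPM (SD, n = 4) without and 6.81 ± 1.57 CPM (SD, n = 4) with stimulation. Its log2 fold change was -1.32 (SE 0.21, adjusted p = 0.00986), with -1.33 within replicates 1 and 2. The call was lost without control replicate 1 (adjusted p = 0.0572) and without control replicate 3 (0.0555), and with limma on log2(FPKM + 0.1) (0.0723). Within replicates 1 and 2, 5 of the 24 rose and 1 fell, against 8.52% of all tested genes called higher, and without control replicate 1, 2 rose and 0 fell.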

How the data were processed

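RNA sequencing of C2C12 myotubes was analysed from 8 libraries, 4 control and 4 EPS, grouped by the sample titles. Per the submitters' processing notes, STAR 2.5.1, Cufflinks, Cuffdiff 2.2.1 and the build mm10 were used; neither the strand setting nor the annotation release is given there. Per the file headers, the deposited table holds estimated counts (fragments per gene and library, not scaled) and FPKM values scaled by Cuffdiff. Of the counts above 0, 93.3% were whole, and all were rounded. In 46 genes the estimate is marked as skipped for too many fragments; they entered no library size and no test. Symbols and positions came from a GENCODE annotation of mm10, matched on the identifier without its version (48051 of 48432).

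Genes were filtered with filterByExpr (minimum count 10, minimum total 15), TMM-scaled and tested by quasi-likelihood in edgeR 4.0.16 (R 4.3.3; limma 3.58.1 and DESeq2 1.42.0 as alternatives), with Benjamini-Hochberg adjustment over 13987 genes and a threshold of 0.05. A second fit with 4 cells, group by replicates 1 and 2 or 3 and 4, gave the effect within each set, their difference and the set difference. Standard errors, derived from the fold change and F, are approximate, as are the 95% intervals. CPM values rest on TMM-scaled sizes, and fitted fold changes need not equal ratios of mean CPM. The scripts were tested on simulated data. Depth was 12.6 to 20.7 M fragments in 7 libraries and 0.354 M in control replicate 2.

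Both groups carry the replicate numbers 1 to 4, whose meaning the labels do not state. Deviations from the group mean correlated across genes at 0.300, 0.214, 0.286 and 0.297 between same-numbered libraries, so the numbers were taken to pair them, from the data alone. Control replicate 3 with EPS replicate 4 and control replicate 4 with EPS replicate 3 had 0.231 and 0.253, close to their same-numbered values; the fit without the block is the main one. Alternatives were other scalings, DESeq2, limma on log2(FPKM + 0.1) and log2(FPKM + 1), no filter, the replicate block, length and GC offsets, and leaving out libraries. A fit without 1 library that leaves a group of a set with 1 library assumes that it varies like the others. The members and lists were chosen with earlier results of these data known. Named genes are the 10 members, tested genes within 10 kb of a member, and the 3 genes most like Neat1. From each list, the called member with the smallest p was named, or else the one with the highest mean CPM, not scaled by length. Cdkn1c, Slc22a18, Cd81, Nap1l4, Osbpl5, Tssc4, Igf2, Phlda2, Ascl2, Dlk1 and Rtl1 were named outside this rule after their values were seen.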

Additional observations from a re-analysis of the deposited data

Results flagged for a closer look

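A library was singled out where its gap to the nearest of the 4 in its group over the group's range exceeded Dixon's 95% critical value, which chance gives in about 1 of 20 groups; 5 of the 50 groups examined met this. In EPS, replicate 2 stood apart for Meg3 (0.0801 CPM), Rian (0.320 CPM) and Mirg (0.240 CPM), all at 0 in EPS replicates 1 and 3, values of 1, 4 and 3 fragments. Meg3 and Mirg were at 0 in every other EPS library, so their ratio is 1.0 whatever the count. The rate of about 1 of 20 does not hold for counts this near 0. In control, replicate 2 stood apart for Snhg1 (22.7 CPM, 8 fragments) and for Nop58, a core protein of snoRNA particles (218 CPM); it is the library with 0.354 M fragments.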

How the results depend on the processing

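Over all members and fits, 433 of 477 alternative log2 fold changes kept their direction and their side of the threshold, 21 newly passed it, 13 no longer did and 10 changed sign. None of the 10 was past the threshold. These were Neat1 within replicates 3 and 4 without control replicate 4 (-0.0073; without any 1 library -0.0073 to 0.62), and, for the difference between the sets of replicates, H19 without control replicate 2 (0.24) or EPS replicate 1 (0.31; -1.17 to 0.31) and Snhg1 without control replicate 1 (-0.20; -0.20 to 1.25). For replicates 1 and 2 against 3 and 4 they were H19 with length and GC offsets (0.25) and without control replicate 1 (0.080) or EPS replicate 1 (0.18; -0.56 to 0.18), and Snhg12 without control replicate 1 (-0.29; -0.29 to 0.085) and with limma at pseudocounts of 0.1 and 1 (-0.087 and -0.078).

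Of the 6 tested members, EPS against control called 2 with the replicate block, 3 with the block and both offsets, 2 with the block without both libraries of replicate 2, 1 with the offsets, 1 in replicates 1 and 2 alone and 2 in replicates 3 and 4 alone. The block changed no other member's call. Within replicates 1 and 2, where 3 were called, either limma fit called 1, the fit without the filter 4, and leaving out 1 library gave 0 to 4. Within replicates 3 and 4, the unfiltered fit called 1. For the difference, DESeq2 called 1, the unfiltered fit 1, and leaving out 1 library gave 0 to 2. Between the sets, where 2 were called, either limma fit called 1 and the unfiltered fit 3, with Snhg1 added (adjusted p = 0.0224).

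Over all genes, EPS against control gave 428 calls, and 947 by DESeq2, 123 and 178 by limma (pseudocounts 0.1 and 1), 1691 with the block, 720 with offsets, 2054 with both, 2457 with the block without pair 2, 2277 in replicates 3 and 4 alone and 119 to 537 without 1 library. Within replicates 1 and 2 there were 1766, and 566 and 883 by limma, 3019 unfiltered and 801 to 3539 without 1 library; higher genes were 1191 of these calls and 977 of 1803 with upper quartile scaling. Within replicates 3 and 4 there were 194, and 17 and 20 by limma, 624 unfiltered, 296 with offsets and 23 to 476 without 1 library. The difference gave 0, and 55 by DESeq2, 318 unfiltered and 0 to 763 without 1 library. The sets gave 1826, and 27 and 86 by limma, 3325 unfiltered and 121 to 4062 without 1 library. The cause of these shifts was not tested.

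DESeq2 gave no adjusted p for the difference of Gas5, Snhg1 and Snhg12. The depth of control replicate 2 limits every low member within replicates 1 and 2.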
